A study of Mus musculus with 17 samples.

Results

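Non-collagen extracellular matrix genes are described here through 10 members: Fn1, Tnc, Sparc, Mgp, Dcn, Bgn, Eln, Lum, Postn and Aebp1. They were chosen by symbol, with no threshold on a measured value, and each symbol matched 1 of the 43430 Ensembl gene rows of both deposited count tables. RNA came from alveolar epithelial type 2 (AT2) cells, the surfactant-making cells of the lung alveolus, flow-sorted from 2-month-old C57BL/6J mice. In the poly(A) experiment, naive mice received vehicle (4 libraries, titled saline) or ISRIB (4 libraries), an inhibitor of the integrated stress response, 24 hours earlier. In the total-RNA experiment, cells came from naive mice (4 libraries) or from mice given bleomycin 14 days before (5 libraries), a drug used to injure the lung and bring on fibrosis; the labels of both groups add saline or vehicle treatment. The NEBNext Ultra kit was used for the poly(A) libraries (3 ng of RNA) and a SMARTer Stranded Total RNA-Seq Pico kit for the others (0.35 ng), so treatments were compared only within a kit. No dose is in the labels used here, nor a statement that libraries came from separate animals, and p-values therefore measure the spread between libraries, which may in part be technical.

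The extracellular matrix is the protein and sugar meshwork between cells. Beside the collagens it holds adhesive glycoproteins such as fibronectin, elastic fibres, proteoglycans that bind collagen and growth factors, and matricellular proteins that signal to cells without forming fibres. In the lung, mesenchymal cells such as fibroblasts are its classical source, and scarring lungs accumulate it. In RNA from sorted cells, a change in the number of cells of another type cannot be told apart from a change in RNA per cell.

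Total counts per library ran from 10493574 to 15727139 in the poly(A) table and from 3295257 to 6333166 in the total-RNA table. In the latter, 17108 to 19763 genes had at least 1 count in naive libraries and 13940 to 17112 in bleomycin libraries, and rRNA-like and mitochondrial genes took 21.6% to 30.2% and 16.6% to 23.8% of counts. The sorted cell type was checked through 10 AT2 markers, none of them at 0: their summed level was 79547 to 86840 CPM (counts scaled to library size) in naive libraries. In bleomycin libraries 1 to 5 it was 49235, 57810, 87208, 72981 and 76441 CPM, lowest in libraries 1 and 2. CPM values here use library sizes scaled by edgeR's TMM factors.

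Most of these matrix genes were at a higher level in bleomycin than in naive libraries. Sparc, Aebp1, Tnc, Fn1, Mgp and Bgn were each called higher after bleomycin (edgeR quasi-likelihood test, Benjamini-Hochberg adjusted p under 0.05), by 1.10 to 4.77 on the log2 scale. Those 6 were the members with enough counts for the test, in a comparison where 20.5% of 11223 tested genes were called, 11.2% higher and 9.31% lower. Every bleomycin library was above every naive library for all 6 tested members, as for 10.4% of tested genes. The same held for Dcn and Eln, which were not tested. For Dcn it rests on library size, since bleomycin library 1 and naive library 2 each held 1 count. Postn overlapped between the groups and Lum had no count in any library. Tnc, Mgp and Bgn entered the test through the bleomycin libraries alone, since no naive library reached 10 counts, and of Fn1 only naive library 3 did. Such genes could pass the filter only by being higher after bleomycin, so the share called carries no weight of its own. Without bleomycin library 2, in which 5 members were highest, the same test also called 6.

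**Figure D1:**
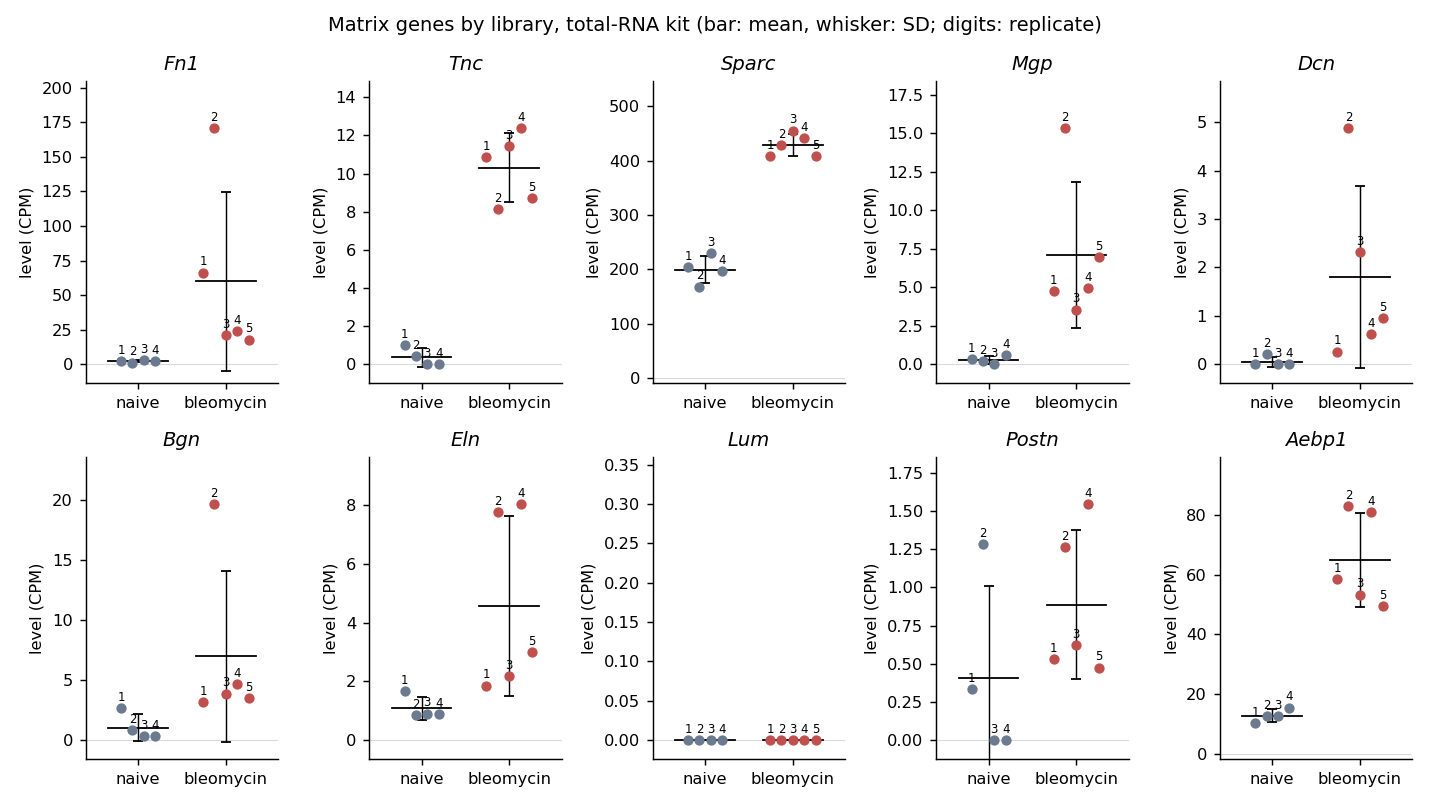
Level of each of the 10 matrix genes in CPM (y axis, own scale per panel) in the 4 naive and 5 bleomycin libraries (x axis). Points are libraries, digits their replicate numbers, bars the mean and whiskers the SD. Sparc, Tnc and Aebp1 sit in separate clusters, while Fn1, Mgp, Dcn and Bgn are highest in bleomycin library 2 and Lum is at 0 in all 9.

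Promoter sequence is shown for Tnc, which was nearly absent from naive libraries, Bgn, whose level was uneven after bleomycin, and Aebp1, which was counted in every library of both groups. RefSeq's promoter table (GRCm38.p6) holds 5 of the 10 members: Tnc, Sparc, Bgn, Postn and Aebp1. Each line gives the 250 bases before the annotated start, 5′ to 3′ on the gene's strand, with capitals marking matches to the motifs searched on both strands. The motifs were the TATA box core TATAAA, the GC box GGGCGG, the AP-1 site TGANTCA and the TEAD site GGAATG, which 12.4%, 32.7%, 6.75% and 12.6% of 32851 promoters of the same length hold.
Tnc, minus strand, chr4:64047016-64047265: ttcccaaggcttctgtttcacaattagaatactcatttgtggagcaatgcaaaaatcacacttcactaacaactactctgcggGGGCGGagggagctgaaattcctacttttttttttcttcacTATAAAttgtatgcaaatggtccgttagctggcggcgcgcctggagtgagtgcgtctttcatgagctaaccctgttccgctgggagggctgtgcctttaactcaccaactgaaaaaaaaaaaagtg
Bgn, plus strand, chrX:73483351-73483600: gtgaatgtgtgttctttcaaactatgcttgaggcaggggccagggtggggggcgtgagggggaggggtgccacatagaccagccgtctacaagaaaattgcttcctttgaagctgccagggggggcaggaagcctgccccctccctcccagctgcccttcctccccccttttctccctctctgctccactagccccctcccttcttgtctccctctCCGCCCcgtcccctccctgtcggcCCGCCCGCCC
Aebp1, plus strand, chr11:5861616-5861865: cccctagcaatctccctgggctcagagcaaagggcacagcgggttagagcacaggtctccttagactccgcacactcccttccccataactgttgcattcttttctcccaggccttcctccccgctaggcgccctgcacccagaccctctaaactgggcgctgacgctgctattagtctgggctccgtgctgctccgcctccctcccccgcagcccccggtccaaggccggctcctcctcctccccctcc
The Tnc line is the first of its 2 table entries. It has a TATAAA match that begins 126 bases before the start and 1 GGGCGG match 167 bases before it. Bgn has 3 matches to the GC box, on the opposite strand, the nearest 6 bases before the start. Aebp1 has none of the 4 motifs in this window. GC content was 44.8% for Tnc, 64.4% for Bgn and 64.4% for Aebp1, against a median of 52.4% over all promoters. A match is a match of letters and was not tested as a binding site.

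Sparc (ENSMUSG00000018593, GRCm38 chromosome 11, 55394500 to 55423183, minus strand) encodes osteonectin, a matricellular protein that binds collagen. Naive libraries 1 to 4 held it at 204, 169, 229 and 198 CPM, and bleomycin libraries 1 to 5 at 408, 428, 455, 441 and 409 CPM. All bleomycin libraries were well above all naive ones and close to each other. The means were 199.9 ± 25.0 CPM (SD, n = 4) and 428 ± 20.4 CPM (SD, n = 5), a log2 fold change of 1.10 (SE 0.11, 95% interval 0.86 to 1.34, edgeR adjusted p = 3.20e-06), which is 2.14-fold. Among bleomycin libraries its coefficient of variation was 4.77%, with 2.15% due from counting alone.

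Aebp1 (ENSMUSG00000020473, chromosome 11, 5861947 to 5872088, plus strand) encodes ACLP, a secreted protein that binds fibrillar collagen. Its naive levels were 10.4, 12.6, 12.6 and 15.5 CPM, and its levels in bleomycin libraries 1 to 5 were 58.5, 82.8, 53.3, 80.8 and 49.4 CPM. The lowest bleomycin value was over the highest naive value by a wide margin. Mean levels were 12.8 ± 2.09 CPM (SD, n = 4) and 64.9 ± 15.7 CPM (SD, n = 5), a log2 fold change of 2.34 (SE 0.20, edgeR adjusted p = 5.47e-07), or 5.05-fold. Its coefficient of variation among bleomycin libraries was 24.2%, against 5.60% due from counting, with libraries 2 and 4 on top.

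Tnc (ENSMUSG00000028364, chromosome 4, 63959785 to 64047015, minus strand) encodes tenascin-C, a matricellular glycoprotein found in injured and developing tissue. Raw counts were 3, 2, 0 and 0 in naive libraries and 41, 45, 74, 40 and 55 in bleomycin libraries 1 to 5, or 10.8, 8.12, 11.5, 12.4 and 8.71 CPM. It was nearly absent from naive libraries and even across bleomycin libraries, with a coefficient of variation of 17.7% against 14.0% due from counting. The log2 fold change was 4.77 (SE 0.58, edgeR adjusted p = 1.36e-05). With so few naive counts the ratio is loosely fixed: the ratio of summed counts per summed library size was 28.9, with an exact 95% interval (Clopper-Pearson) of 12.2 to 89.7. Intervals of this kind cover counting error only. Leaving out naive library 1, which held 3 of the 5 naive counts, moved the log2 fold change to 5.68. Its exons overlap an opposite-strand model, 8030451A03Rik, by 176 bases, and the labels do not say whether counting used strand.

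Fn1 (ENSMUSG00000026193, chromosome 1, 71585520 to 71653200, minus strand) encodes fibronectin, the adhesive glycoprotein on which new matrix is laid down. Naive libraries held 2.35, 1.28, 3.30 and 2.38 CPM, from 7, 6, 11 and 8 counts. Bleomycin libraries 1 to 5 held 66.4, 171, 20.9, 23.8 and 17.9 CPM, from 251, 946, 135, 77 and 113 counts. All 5 were above every naive library, but they were far apart: library 2 alone held 62.2% of the group's counts, and the coefficient of variation was 108% against 5.73% due from counting. The means were 2.33 ± 0.83 CPM (SD, n = 4) and 59.9 ± 65.0 CPM (SD, n = 5), a log2 fold change of 4.72 (SE 0.72, edgeR adjusted p = 1.40e-04). Exons of Fn1 overlap the opposite-strand model Apol7d by 292 bases. Without bleomycin library 2 the log2 fold change was 3.81, still called by edgeR (adjusted p = 1.04e-05), and the ratio of summed counts went from 26.9 (19.0 to 39.5) to 13.1 (9.14 to 19.3). With limma-voom in place of edgeR, Fn1 was not called (log2 fold change 4.14, limma adjusted p = 0.0652), the highest adjusted p among its 15 alternative settings, of which the lowest was 1.69e-78, from the fit without a filter.

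Library 2 was also the highest for Mgp and Bgn. Mgp (ENSMUSG00000030218, chromosome 6, 136872435 to 136875823, minus strand) encodes matrix Gla protein, an inhibitor of calcification. It had 1, 1, 0 and 2 counts in naive libraries and 18, 85, 23, 16 and 44 in bleomycin libraries 1 to 5, which is 4.76, 15.3, 3.56, 4.95 and 6.97 CPM. The 2 groups were apart, with library 2 on top. Its log2 fold change was 4.54 (SE 0.73, edgeR adjusted p = 1.82e-04), and its ratio of summed counts was 26.3 (10.1 to 97.7), or 18.3 (6.93 to 68.5) without library 2.

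Bgn (ENSMUSG00000031375, chromosome X, 73483602 to 73495933, plus strand) encodes biglycan, a small leucine-rich proteoglycan. Naive libraries held 8, 4, 1 and 1 counts and bleomycin libraries 1 to 5 held 12, 109, 25, 15 and 22, at 3.17, 19.7, 3.87, 4.64 and 3.48 CPM. Library 2 held 59.6% of the bleomycin counts, and the lowest bleomycin library stood only a little above naive library 1 at 2.68 CPM. The log2 fold change was 2.79 (SE 0.73, edgeR adjusted p = 0.0100). It fell to 1.90 without bleomycin library 2 (edgeR adjusted p = 0.0345) and was 3.70 without naive library 1. The ratio of summed counts was 7.40 (4.30 to 13.8) with all libraries and 3.83 (2.15 to 7.35) without bleomycin library 2. Bgn was not called with limma-voom (adjusted p = 0.0588, against a range of 9.93e-06 to 0.0588 over 15 settings).

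Dcn, Eln, Postn and Lum were below the count filter in this table. Dcn (ENSMUSG00000019929, chromosome 10, 97479609 to 97518143, plus strand) encodes decorin, a small leucine-rich proteoglycan that coats collagen fibrils. It had 0, 1, 0 and 0 counts in naive libraries and 1, 27, 15, 2 and 6 in bleomycin libraries 1 to 5. The ratio of summed counts was 28.9, with an interval from 4.96 to 1163, and library 2 again held most of the counts (52.9%). Eln (ENSMUSG00000029675, chromosome 5, 134702593 to 134747323, minus strand) encodes elastin, the core of elastic fibres. Its naive counts were 5, 4, 3 and 3 and its bleomycin counts 7, 43, 14, 26 and 19, at 1.85, 7.76, 2.17, 8.04 and 3.01 CPM. Eln was highest in library 4 rather than library 2, by a small margin, and its ratio of summed counts was 4.12 (2.39 to 7.61). Its exons overlap the opposite-strand model Gm30003 by 267 bases.

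A fit without the filter gave Dcn a log2 fold change of 4.32 (SE 1.38, edgeR adjusted p = 0.00791) and Eln one of 2.08 (SE 0.64, edgeR adjusted p = 0.0147). Dcn, with 1 naive count, was tested in no other setting. SEs moved either way in the fit without the filter, most for Fn1 (0.25, against 0.72 with the filter) and little for Tnc (0.59 against 0.58). The coefficient of variation of Fn1 among bleomycin libraries was 108%, so adjusted p from that fit may understate the spread between libraries. With the filter, Eln was tested only in the fits that left out a naive library. It was called without naive library 1 (edgeR adjusted p = 0.0367) and not without naive library 2, 3 or 4 (edgeR adjusted p = 0.0662 to 0.0723). Postn (ENSMUSG00000027750, chromosome 3, 54361109 to 54391037, plus strand) encodes periostin, a matricellular protein that is a familiar product of activated fibroblasts. It had 1, 6, 0 and 0 naive counts and 2, 7, 4, 5 and 3 bleomycin counts, so the groups overlapped, and the ratio of 1.70 had an interval from 0.70 to 4.73. Lum (ENSMUSG00000036446, chromosome 10, 97565128 to 97572703, plus strand) encodes lumican, a small leucine-rich proteoglycan made by fibroblasts. With 0 counts in all 9 libraries, a level of up to 3 counts per group, 0.209 CPM in naive and 0.118 CPM in bleomycin libraries, was below detection.

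**Figure D2:**
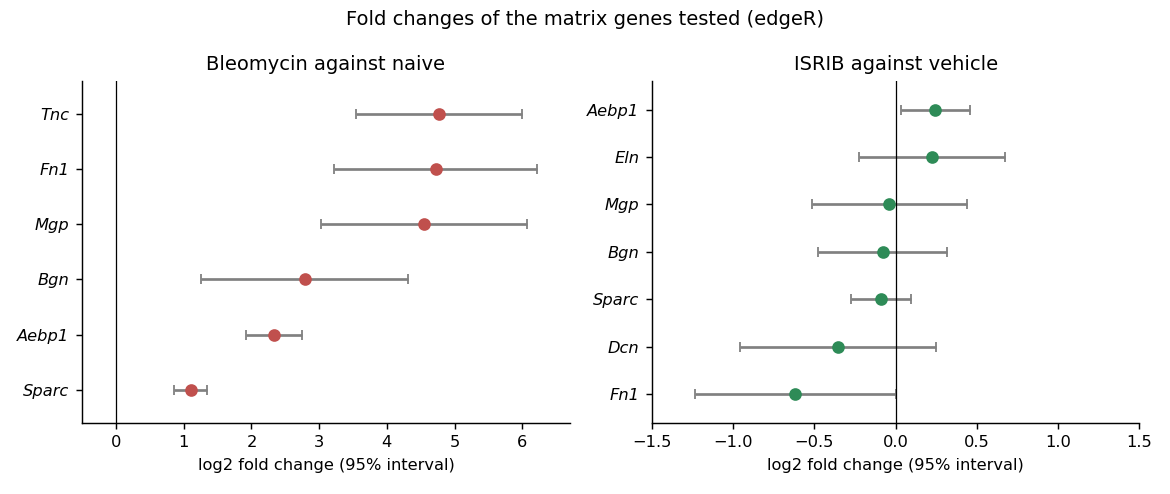
Log2 fold change (x axis) with 95% interval for each matrix gene that passed the count filter (y axis), from edgeR, bleomycin against naive on the left and ISRIB against vehicle on the right. Bleomycin fold changes run from 1.10 for Sparc to 4.77 for Tnc, and those of ISRIB from -0.62 for Fn1 to 0.24 for Aebp1, none of the latter called; the 2 x axes differ in range.

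Members differed in how their level was spread over the bleomycin libraries. Bleomycin library 2 held 2.85 times the group mean of Fn1, 2.82 times that of Bgn, 2.70 times that of Dcn and 2.16 times that of Mgp. It held 1.00 times the mean of Sparc, 1.28 times that of Aebp1 and 0.79 times that of Tnc, its lowest library. Eln had 1.70 times its mean there and 1.76 times in library 4, and Postn 1.42 and 1.74 times. Below library 2 the order differed: library 1 was the second highest for Fn1 (1.11 times its mean) but the lowest for Dcn, Bgn and Eln (0.15, 0.46 and 0.41 times). The summed level of 18 fibroblast and myofibroblast markers was also highest in library 2: it was 84.4, 163, 37.5, 45.8 and 46.9 CPM in bleomycin libraries 1 to 5, with library 2 at 2.16 times the mean. In naive libraries that sum was 23.8 to 42.3 CPM. Its rise lay in Col1a1, Col1a2, Col3a1 and Vim, which together summed to 2.98 to 13.8 CPM in naive and 19.7 to 133 CPM in bleomycin libraries. The other 14 markers summed to 16.7 to 28.5 and 16.2 to 30.1 CPM. The 4 were set apart because they made up most of the rise, so the level sum of the rest follows in part from that choice. That sum also holds moves both ways, such as Acta2 from 1.59 ± 1.66 to 5.22 ± 4.29 CPM (edgeR adjusted p = 0.132) and a lower Cthrc1. Of the 18 markers 7 were tested and 4 rose, Col1a1 by 3.89, Col1a2 by 2.72, Col3a1 by 2.35 and Vim by 1.83 on the log2 scale (edgeR adjusted p = 0.00112, 0.0334, 0.00123 and 0.0182). No naive library had 10 counts of Col1a1 or Col1a2, so both could be tested only by being higher after bleomycin. The filter needs as many libraries as the smaller group holds, and naive library 4 had only 4 counts each of Vim and Col3a1. Bleomycin libraries were therefore needed for Vim and Col3a1 to pass as well. Col1a1 stood at 26.7, 52.3, 3.87, 9.90 and 7.76 CPM in bleomycin libraries 1 to 5, with libraries 2 and 1 on top as for Fn1. Col1a2 was not called without any 1 naive library (adjusted p = 0.0589 to 0.101) or with DESeq2 (adjusted p = 0.126), Vim without naive library 3 or 4 or bleomycin library 2 (adjusted p = 0.0627 to 0.0746), and Col1a1, Col1a2 and Vim with limma-voom (adjusted p = 0.144, 0.280 and 0.0802). Cthrc1, one of the most abundant markers on the list, went from 10.1 ± 0.767 to 6.00 ± 2.18 CPM and was not called (edgeR adjusted p = 0.112). Tcf21 and Pi16, markers of resident fibroblasts, were at 0 in every bleomycin library and had only 2 and 5 counts over the naive libraries. Thy1 was at 0 in every naive library and had 8 counts over the bleomycin libraries. None of these markers was tested.

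**Figure D3:**
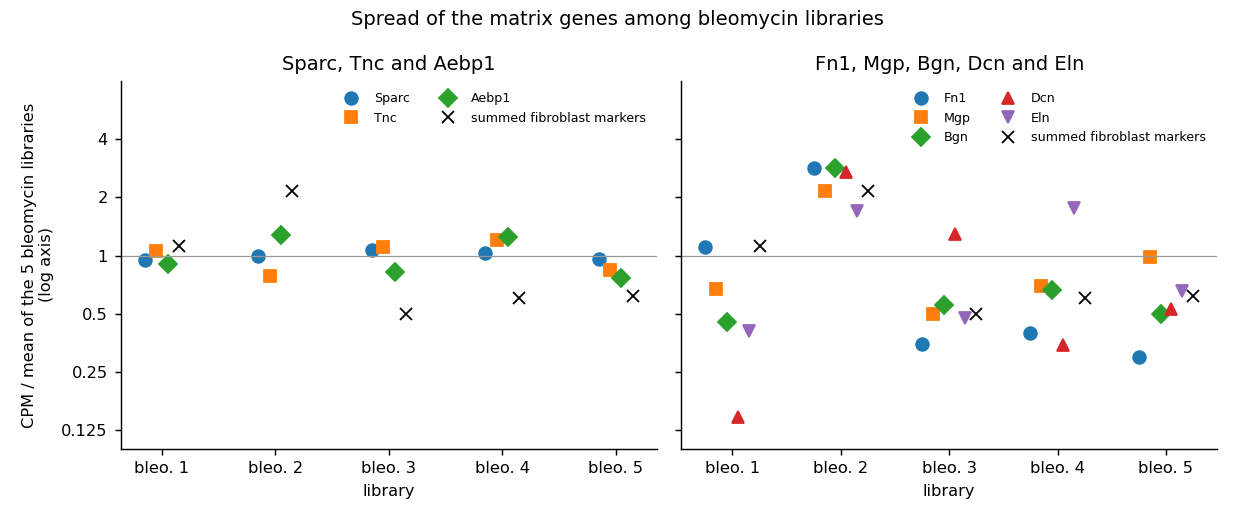
CPM in each bleomycin library divided by the mean of the 5 (y axis, log scale) for library 1 to 5 (x axis), with 1 symbol per gene and crosses for the summed fibroblast markers in both panels. Sparc, Tnc and Aebp1 stay within 0.76 and 1.28 of their mean, while Fn1, Mgp, Bgn and Dcn reach 2.16 to 2.85 in library 2, as the crosses do (2.16).

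Other marker lists covered cells that a sort of AT2 cells could also hold. Mesothelial markers summed to 0.298 to 5.34 CPM in naive libraries and to 3.44, 23.6, 8.21, 16.4 and 7.92 CPM in bleomycin libraries 1 to 5. One of these 5 genes, Msln, was tested and rose by 3.01 on the log2 scale, a call lost with limma-voom (adjusted p = 0.106). It had at most 8 counts in a naive library, so it too could be tested only by being higher after bleomycin, and Upk1b was at 0 in naive libraries. Endothelial markers (3 of 7 tested rose, of 10 listed, none at 0) summed to 27.7 to 40.9 and 36.5 to 98.8 CPM. Macrophage and monocyte markers (14 listed, 4 tested, 1 higher and 1 lower) summed to 698 to 869 and 281 to 747 CPM, most of it Lyz1, which fell by 0.75 on the log2 scale (edgeR adjusted p = 0.0277). Without Lyz1 the list summed to 15.8 to 28.8 and 41.0 to 72.8 CPM, in the other direction, most of it Cd14, which rose by 1.76 (edgeR adjusted p = 1.06e-05), with Marco and C1qa at 0 in all 9 libraries. Neutrophil and lymphocyte markers reached at most 1.80 and 1.68 CPM, with none tested and S100a8, Ly6g and Ms4a1 among those at 0 in both groups. Airway markers (1 of 5 tested rose) summed to 448 to 906 and 479 to 916 CPM. Of the 10 AT2 markers, all tested, 2 rose and 2 fell. Alveolar type 1 markers summed to 1091 to 1317 and 1751 to 2299 CPM (6 of 8 rose), and other epithelial markers to 1599 to 1831 and 2074 to 2496 CPM (4 of 7 rose). Among these, Pdpn and Cldn4 had no naive library at 10 counts. The part of other cells in the levels of the matrix genes was not tested.

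Genes whose profile over the 9 libraries lay nearest to that of a member, by root mean square difference of centred log2(CPM + 1), were searched among 9227 genes with a mean of at least 5 CPM. Aebp1 lay closest to Slc5a1, a glucose transporter, at 0.09, to Gpc3, a cell-surface proteoglycan, at 0.18, and to Nexn at 0.22, against a spread of its own of 1.14. For Sparc they were H2-K1 and Tmem176a, both at 0.12, and H2-D1 at 0.14. H2-K1 and H2-D1 are MHC class I genes, a family of similar sequences, so their counts may be uncertain, which was not examined. Tnc lay nearest to Nptx1 (0.39), Anln (0.40) and Knstrn (0.40), Mgp to Hist1h1a (0.29), Cdca3 (0.30) and Dglucy (0.30), and Fn1 to St8sia6 (0.47), Cd177 (0.49) and Itm2a (0.58). Bgn was nearest to Cyp2s1 (0.39), the fibroblast marker Vim (0.43) and Fhl1 (0.46). These likenesses are descriptions over 9 libraries that share the contrast between the groups.

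Around the members, 124 other matrix genes in 8 lists were followed, of which 57 were tested. Of these, 25 rose and 4 fell after bleomycin (edgeR), with a median log2 fold change of 0.43 against 0.0026 over all tested genes. Of the 57, Emilin1, Ltbp2 and Ccn2 had no naive library at 10 counts and could be tested only by being higher after bleomycin. Other genes with few naive counts, such as Fbn1 with 19 in all, also needed bleomycin libraries to pass the filter. The number that rose therefore carries no weight of its own. Elastic fibre genes rose in 5 of 9 tested cases, Emilin1 and Ltbp2 among them, and fell in none. The fibrillin Fbn1 rose by 2.64 (SE 0.67, edgeR adjusted p = 0.00818), from 1.38 ± 1.28 to 8.60 ± 6.35 CPM. Fbln5, a fibulin that organises elastin, rose by 2.83 (SE 0.38, edgeR adjusted p = 3.88e-05) and Ltbp2, a microfibril protein, by 2.35 (SE 0.69, edgeR adjusted p = 0.0195). Emilin1, an elastic fibre glycoprotein, rose by 1.83 (SE 0.47, edgeR adjusted p = 0.00880). Efemp2, which elastic fibre assembly needs, rose by 0.73 (SE 0.25, edgeR adjusted p = 0.0430). Calls for Ltbp2 and Efemp2 were each lost without 1 of several libraries: naive 1, 2 or 3 for Ltbp2 (adjusted p = 0.0541 to 0.0686) and naive 1, 3 or 4 or bleomycin 2, 3, 4 or 5 for Efemp2 (adjusted p = 0.0567 to 0.140). Fbn1, Ltbp2 and Efemp2 were also not called with limma-voom (limma adjusted p = 0.0611, 0.165 and 0.0814).

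Enzymes and chaperones of matrix maturation were mixed, with 3 of 8 tested higher and 1 lower (median 0.24). Tgm2, a cross-linking transglutaminase, rose from 14.8 ± 2.93 to 41.1 ± 7.67 CPM, by 1.48 (edgeR adjusted p = 2.55e-05), and Pcolce, which enhances procollagen processing, by 2.21 (edgeR adjusted p = 4.46e-04). The collagen chaperone HSP47, Serpinh1, rose by 1.06 (edgeR adjusted p = 2.60e-04). Bmp1, the protease that Pcolce assists, fell by 1.15 on the log2 scale, from 294 ± 28.7 to 133 ± 31.7 CPM (edgeR adjusted p = 3.84e-05). The lysyl oxidases Lox, Loxl1, Loxl2, Loxl3 and Loxl4 were all below the filter. Of 8 further small leucine-rich proteoglycans, the family of Dcn, Bgn and Lum, only Podn was tested, and it had a log2 fold change of 0.41 that was not called (edgeR adjusted p = 0.469).

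Matricellular genes, the class of Sparc, Tnc and Postn, had 3 of 9 tested higher, Ccn2 among them, and 2 lower. Ccn2, known as connective tissue growth factor, went from 0.543 ± 0.140 to 10.3 ± 7.91 CPM, a rise of 4.15 (edgeR adjusted p = 1.15e-04). Its relative Ccn1 rose by 2.90 (edgeR adjusted p = 4.82e-06) and thrombospondin 1, Thbs1, by 1.60 (edgeR adjusted p = 1.26e-06). Smoc2, a relative of Sparc, fell by 1.70 (edgeR adjusted p = 8.04e-04), from 20.5 ± 1.86 to 6.26 ± 3.05 CPM. Tgfbi, a collagen-binding matrix protein, fell by 1.01 (edgeR adjusted p = 0.00355), from 40.2 ± 4.54 to 19.7 ± 6.99 CPM. Among large and cell-surface proteoglycans and hyaluronan genes, 3 of 8 tested rose and none fell (median 0.28). Gpc3 rose by 2.43 and agrin, Agrn, by 1.51 (edgeR adjusted p = 9.95e-07 and 1.64e-06). Syndecan 1, Sdc1, rose by 0.40 (edgeR adjusted p = 0.0268), a call lost without naive library 2 or 4 (adjusted p = 0.0989 and 0.0909). Other matrix glycoproteins had 3 of 10 tested higher and 1 lower (median 0.76). These included Lgals3bp at 2.32, von Willebrand factor, Vwf, which is also an endothelial marker, at 1.78, and nephronectin, Npnt, a basement membrane protein of the alveolus, at 1.28 (edgeR adjusted p = 2.87e-05, 0.00948 and 3.82e-06). Vwf was not called with limma-voom (limma adjusted p = 0.0998). Slit2, a secreted guidance protein, fell by 0.95 (edgeR adjusted p = 0.0382), a call lost without naive library 1 or 4 or bleomycin library 2, 3 or 5 (adjusted p = 0.0523 to 0.173), without the filter, without scaling factors and with the replicate block (adjusted p = 0.0581, 0.0535 and 0.0506).

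Genes that rose were found among matrix proteases and among their inhibitors. Of 7 tested proteases 3 rose and none fell (median 0.26): Htra1 by 1.14, the membrane-bound Mmp14 by 1.05 and Adamts9 by 0.85 (edgeR adjusted p = 0.00546, 8.12e-04 and 4.04e-04). All 5 tested genes of the protease inhibitor list, of 8 listed, rose (median 1.18). Serpinf1 is on that list by its serpin family and is not an active protease inhibitor. The metalloprotease inhibitor Timp2 rose by 2.18, from 19.4 ± 2.79 to 88.2 ± 32.2 CPM (edgeR adjusted p = 2.85e-06). Slpi rose by 1.45, Serpinf1 by 1.18 and Serpine2 by 0.86 (edgeR adjusted p = 0.00210, 0.00748 and 1.99e-04). Timp3 rose by 0.64 (edgeR adjusted p = 0.0491), a call lost with limma-voom (adjusted p = 0.117) or without any 1 naive library or bleomycin library 1 or 2 (adjusted p = 0.0826 to 0.135).

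**Figure D4:**
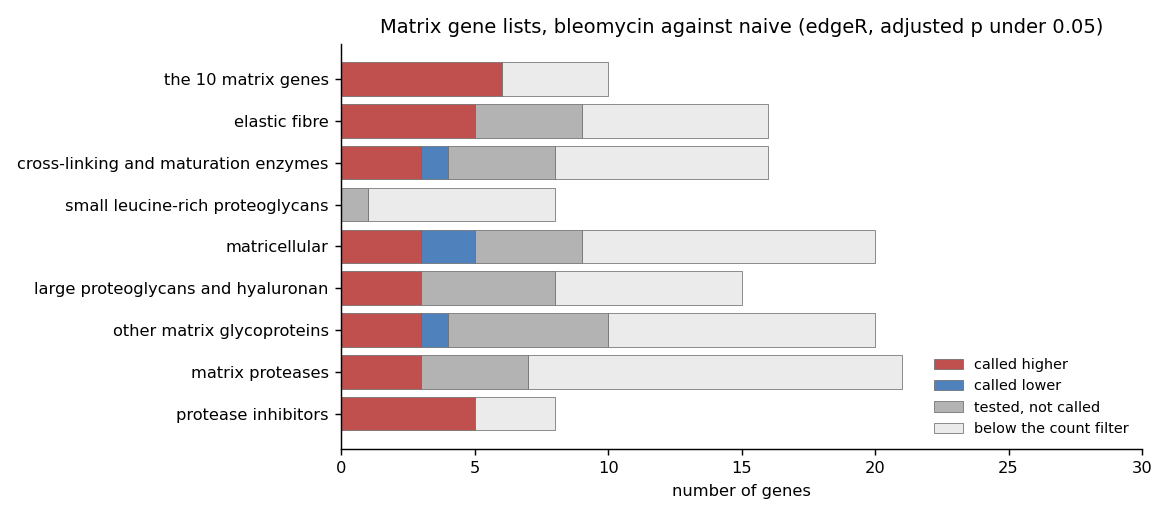
Number of genes (x axis) in the set of 10 matrix genes and in each of 8 further matrix lists (y axis), split into those called higher, called lower, tested but not called, and below the count filter, for bleomycin against naive (edgeR, adjusted p under 0.05). The longest red bars are the 10 matrix genes (6) and the elastic fibre and protease inhibitor lists (5 each), and 7 of 8 small leucine-rich proteoglycans were below the filter.

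No member was called after ISRIB. Of the 10, 7 passed the filter of the poly(A) table and 0 were called (edgeR), where 2.20% of 12054 tested genes were called. DESeq2 and limma-voom also called 0. At an unadjusted p under 0.05 there were 2, Fn1 and Aebp1, as for 1934 of the 12054 tested genes. The groups overlapped for all 10 members, as they did for all but 8.65% of tested genes (4.26% with ISRIB higher). Unadjusted 95% intervals on the log2 scale reached from -0.27 to 0.09 for Sparc, from -0.96 to 0.25 for Dcn and from -1.23 to -0.00086 for Fn1, whose interval does not hold 0.

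Sparc stood at 578, 461, 428 and 542 CPM in vehicle libraries 1 to 4 and at 426, 490, 440 and 530 CPM in ISRIB libraries 1 to 4. The groups overlap, and the log2 fold change was -0.09 (SE 0.09, edgeR adjusted p = 0.675). Aebp1 was 18.1, 17.7, 23.9 and 19.2 CPM with vehicle and 22.2, 26.0, 21.9 and 24.2 CPM with ISRIB. Vehicle library 3 lay within the ISRIB values, and the difference of 0.24 (SE 0.10, 95% interval 0.03 to 0.46, unadjusted p = 0.0279) was not called (edgeR adjusted p = 0.241). Fn1 was 2.10, 2.71, 1.70 and 1.46 CPM with vehicle and 1.02, 1.20, 1.61 and 1.40 CPM with ISRIB. Here 3 ISRIB libraries were lower than any vehicle library, and the log2 fold change of -0.62 (SE 0.29, unadjusted p = 0.0484) was not called (edgeR adjusted p = 0.306).

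Mgp was 4.56, 4.34, 2.43 and 5.53 CPM with vehicle and 4.02, 3.92, 4.65 and 3.51 CPM with ISRIB, a log2 fold change of -0.04 (SE 0.23, edgeR adjusted p = 0.959). Bgn was 4.38, 6.24, 4.46 and 4.95 CPM with vehicle and 5.36, 5.21, 4.83 and 3.33 CPM with ISRIB, a change of -0.08 (SE 0.19, edgeR adjusted p = 0.891). For both genes the ISRIB values lay among the vehicle values, apart from the low Bgn value of ISRIB library 4. Dcn was 2.63, 4.61, 2.29 and 3.98 CPM against 3.13, 2.64, 3.22 and 1.32 CPM with ISRIB, a change of -0.36 (SE 0.29, edgeR adjusted p = 0.592). Eln was 2.54, 3.26, 2.56 and 3.01 CPM against 2.55, 3.76, 3.13 and 3.86 CPM with ISRIB, a change of 0.22 (SE 0.21, edgeR adjusted p = 0.669). ISRIB library 4 was the lowest of all 8 for Dcn and the highest for Eln.

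The other members were at a few counts per library. Tnc had 1, 0, 3 and 1 counts with vehicle and 1, 8, 4 and 6 with ISRIB, a ratio of summed counts of 3.60 (1.30 to 12.3). Although 3 of 4 ISRIB libraries were above all vehicle libraries, it was not called in the fit without a filter (edgeR adjusted p = 0.359). Postn had 3, 3, 10 and 0 counts with vehicle and 11, 6, 2 and 10 with ISRIB, a ratio of 1.72 (0.90 to 3.38). Lum had 0, 1, 3 and 1 counts with vehicle and none with ISRIB, where 3 counts over the group would be 0.0591 CPM. Fibroblast markers summed to 46.5 to 59.2 CPM with vehicle and 43.7 to 56.8 CPM with ISRIB, and mesothelial markers to 7.10 to 13.05 and 5.44 to 13.8 CPM. Endothelial markers summed to 51.1 to 73.7 and 58.5 to 68.2 CPM. ISRIB libraries 2 and 4 stood apart in the macrophage and monocyte sum, at 3650 and 4038 CPM against 2046 to 2426 CPM in the other 6, again nearly all Lyz1 (edgeR adjusted p = 0.186). Without Lyz1 that list summed to 73.7 to 95.5 CPM with vehicle and 77.8 to 91.8 CPM with ISRIB. The only marker on it that was called, Chil3, fell by 1.84 on the log2 scale (edgeR adjusted p = 0.0440), with 59 counts over the vehicle and 17 over the ISRIB libraries. On the same list C1qa was at 0 in both groups, and Adgre1, Marco, Itgam and Ms4a7 had at most 2 counts over a group. ISRIB libraries 2 and 4 also stood apart in the airway sum, at 3278 and 2366 CPM against 3830 to 4288 CPM. The AT2 marker sum was lowest in the same libraries, at 174329 and 175923 CPM against 182306 to 186491 CPM. Leaving out either ISRIB library 2 or 4 gave 0 called members as well, and the part of other cells in the members' levels was not tested.

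**Figure D5:**
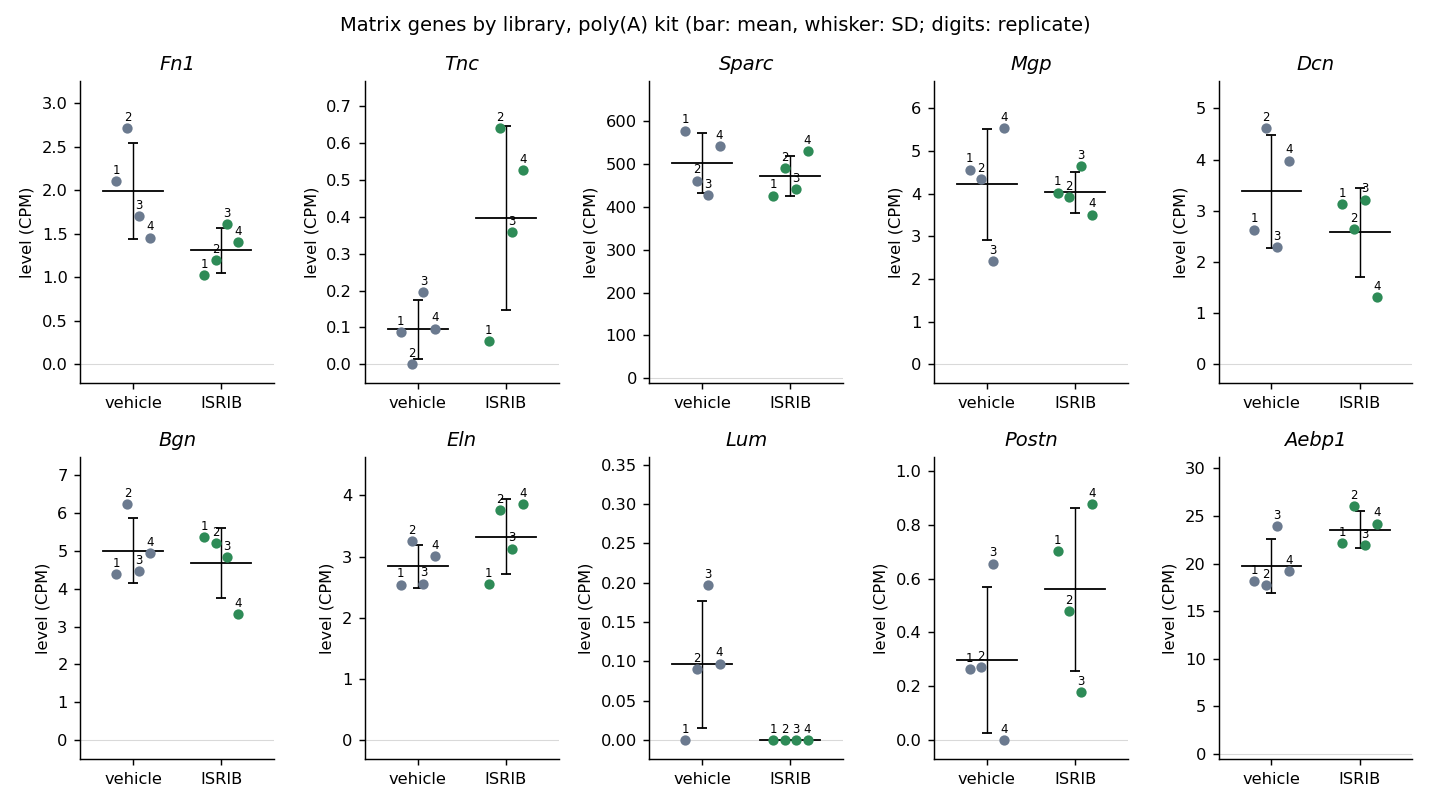
Level of each matrix gene in CPM (y axis, own scale per panel) in the 4 vehicle and 4 ISRIB libraries (x axis); points are libraries, digits their replicate numbers, bars the mean and whiskers the SD. The groups overlap in all 10 panels, and Lum was counted in 3 vehicle libraries only.

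Of 69 tested genes in the other matrix lists, 2 rose and 1 fell with ISRIB (edgeR). Timp2 went from 41.4 ± 1.99 to 60.2 ± 11.4 CPM (SD, n = 4 each), a rise of 0.54 (SE 0.10, edgeR adjusted p = 0.0129). Serpinh1 rose by 0.39 (SE 0.10, edgeR adjusted p = 0.0431), and Serpine2, a serine protease inhibitor, fell by 0.34 (SE 0.08, edgeR adjusted p = 0.0335). Serpinh1 was lost without vehicle library 1, 2 or 3 or ISRIB library 1, 3 or 4 (adjusted p = 0.0568 to 0.153), and Serpine2 without vehicle library 1, 2 or 4 or ISRIB library 2 or 4 (adjusted p = 0.0733 to 0.120). The median over the 69 was -0.03. All 3 had been called higher after bleomycin, so Serpine2 had opposite signs in the 2 experiments, which share no libraries; this was picked out after the values were seen.

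By mean level per length, Sparc, Aebp1 and Mgp ranked 1, 2 and 3 in all 4 groups, though in naive and bleomycin libraries the place of Mgp was within the spread. In CPM per kb of exon, Sparc led at 52.8 ± 6.60 in naive, 113 ± 5.39 in bleomycin, 133 ± 18.4 in vehicle and 124 ± 12.5 in ISRIB libraries. Aebp1 was next at 3.15 ± 0.52, 16 ± 3.88, 4.87 ± 0.70 and 5.81 ± 0.48 CPM per kb. With bleomycin, Mgp followed at 6.00 ± 4.01 and then Fn1 at 5.13 ± 5.56 CPM per kb, which do not differ beyond their spread. Tnc at 1.33 ± 0.23 and Bgn at 1.14 ± 1.17 CPM per kb were likewise within their spread, and below them came Eln at 0.564, Dcn at 0.309, Postn at 0.102 and Lum at 0. In naive libraries, Mgp, Fn1, Bgn and Eln lay between 0.134 and 0.241 CPM per kb and could not be ordered beyond their spread. Tnc ranked 8 of 10 per length in naive libraries and 5 of 10 in bleomycin libraries.

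The poly(A) vehicle libraries and the total-RNA naive libraries both came from mice without bleomycin, but kit, RNA input and depth differ between them, so their values are set side by side without a test. Mgp was at 3.55 ± 1.10 CPM per kb in vehicle libraries and 0.241 ± 0.210 in naive libraries. Dcn was at 0.579 ± 0.188 CPM per kb in vehicle libraries, from 157 counts, and at 0.00915 ± 0.0183 in naive libraries, from 1 count. Bgn was at 0.821 ± 0.141 and 0.170 ± 0.185 CPM per kb. Fn1 was near level, at 0.171 ± 0.0470 and 0.199 ± 0.0707 CPM per kb. Summed fibroblast markers were 46.5 to 59.2 CPM in vehicle and 23.8 to 42.3 CPM in naive libraries. These differences cannot be told apart from the kit.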

How the data were processed

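RNA-seq of 17 libraries of sorted AT2 cells was used, deposited by the authors as raw read counts per gene in 1 table per library kit. Per the submitters' processing notes, bcl2fastq 2.19.1, FastQC, Trimmomatic 0.36, STAR 2.6.0 and HTSeq 0.11.2 were used with mm10. The annotation and strand setting used for counting were not given in the sources used here. Exons of Fn1, Tnc and Eln, and of other genes named (Fbn1, Efemp2, Ltbp2, Tgm2, Pcolce, Thbs1, Ccn2, Adamts9, Timp3), overlap opposite-strand models, whose reads may not be told apart from theirs. Of the 43430 row IDs, 42462 took a symbol, position and exon length from GENCODE M21 (GRCm38).

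Groups came from the treatment and condition labels. Each table was fitted alone with edgeR 4.0.16 in R 4.3.3: filterByExpr by group (minimum count 10, minimum total 15), TMM factors, glmQLFit and glmQLFTest on group, two-sided, Benjamini-Hochberg over all tested genes, called at adjusted p under 0.05. Depth (3295257 to 15727139 counts) limits low genes, so ratios of summed counts carry exact 95% intervals and counts of 0 a limit of 3 counts. Alternatives were no filter, DESeq2 1.42.0, limma-voom (limma 3.58.1), no scaling factors, ribosomal and mitochondrial genes left out, a replicate block, and each library left out in turn. The scripts were tested on simulated counts.

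The 10 members, the 8 matrix lists and the 10 marker lists were chosen with earlier results of these data known. Named beside the members were, per list, up to 3 called genes with the largest change and the most abundant called gene, the most abundant markers, and the 3 genes nearest in profile to each member, passing over predicted gene models. Emilin1, Serpinh1, Tgfbi, Slit2 and Serpine2 after bleomycin, the markers Col1a2, Vim, Acta2, Msln, Cd14, Pdpn and Cldn4, and Chil3 with ISRIB, were added after their values were seen.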

Additional observations from a re-analysis of the deposited data

Results flagged for a closer look

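Of 37 sets of library values of 1 member in 1 group that were examined, 4 had a single library set apart from the rest by a gap that is large against the group's whole range. The rule's rate of about 1 in 20 by chance is for continuous values. Many sets here are a few counts, so 4 of 37 cannot be weighed against that rate. Bleomycin library 2 stood apart for Mgp, at 15.3 CPM, and for Bgn, at 19.7 CPM, each above the other 4 bleomycin libraries. Mgp only just passed, with a gap of 0.711 of the range against a limit of 0.71. Naive library 2 stood apart for Dcn, at 0.214 CPM, which is its 1 count against none in the other 3 naive libraries, a set that meets the rule by construction. Naive library 1 stood apart for Eln, at 1.68 CPM, which is 5 counts against 3 to 4. The part of any cause in these gaps was not tested.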

How the results depend on the processing

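For bleomycin, 6 members were called in the main setting, 8 without the filter, 4 with limma-voom, 6 with DESeq2, without scaling factors, with ribosomal and mitochondrial genes left out and with the replicate block, and 6 to 7 when each library was left out in turn. Log2 fold changes kept their direction under every alternative run: 3.81 to 4.97 for Fn1, 4.40 to 5.68 for Tnc, 1.03 to 1.17 for Sparc, 4.05 to 5.10 for Mgp, 1.90 to 3.70 for Bgn and 2.23 to 2.43 for Aebp1. Calls for other matrix genes after bleomycin numbered 29 in the main setting, 25 (limma-voom) to 35 (no filter) otherwise, and 27 to 30 on leaving out a library. For ISRIB, 0 members were called under every alternative run. Other matrix genes called after ISRIB numbered 3 in the main setting, 10 without the filter, 5 with limma-voom, and 1 to 3 on leaving out a library (1 without vehicle 2 or without ISRIB 4); the cause was not tested. The sign of Mgp after ISRIB turned from -0.04 to 0.056 with limma-voom, 0.01 without vehicle 1, 0.11 without vehicle 4 and 0.02 without ISRIB 4, and that of Bgn from -0.08 to 0.04 without vehicle 2 and 0.048 without ISRIB 4, none of them called; leaving out a library gave ranges of -0.25 to 0.11 for Mgp and -0.16 to 0.048 for Bgn. The replicate numbers share no stated litter, batch or animal, and same-numbered libraries did not deviate together (correlations from -0.106 to 0.0865 for ISRIB and from -0.0382 to 0.0477 for bleomycin). With the replicate block, which drops bleomycin library 5, 6 members and 30 other matrix genes were called after bleomycin, and 0 and 3 after ISRIB. Over all genes, ISRIB called 265, but 648 without the filter, 406 with DESeq2, 86 without vehicle 1, 102 without vehicle 2 and 159 without ISRIB 4; without scaling factors 60.4% of its calls were higher, against 133 of 265 with them, and no member's call changed. Dcn, Eln, Postn and Lum had too few counts for the filter in the bleomycin comparison, at 3295257 to 6333166 total counts per library, and Tnc, Postn and Lum in that of ISRIB, at 10493574 to 15727139.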
